A study of Mus musculus with 24 samples.

Results

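The Notch pathway genes described here were 10 genes chosen by name: the receptors Notch1, Notch2, Notch3 and Notch4, the ligands Jag1, Jag2, Dll1 and Dll4, and the target genes Hes1 and Hey1. They were found by gene symbol among the 56205 genes of the count table, each matched 1 row, and all 10 passed the filter on low counts. The 24 RNA-seq libraries were made from whole livers of C57BL/6J mice. Mice were 8 to 10 weeks old when feeding began, and 12 libraries came from mice kept for 20 weeks on a high fat diet rich in palm oil, fructose and cholesterol, which the labels call FFD, and 12 from mice kept as long on a control diet. The strain was the same in both groups, and no transgene or deletion is named for either. The study used 6 mice per diet and sex, but the labels do not give the sex of a library. The comparison asks how whole-liver levels of Notch pathway transcripts differed between the diets.

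Notch receptors are membrane proteins that are activated by ligands on a neighbouring cell. Ligand binding exposes the receptor to cleavage by ADAM proteases and then by gamma-secretase, and the released intracellular domain enters the nucleus, where it binds RBPJ and Mastermind proteins and switches on genes such as those of the Hes and Hey repressor families. In the liver, Jag1 and Notch2 are known for their part in forming the bile ducts, and Dll4 with Notch1 and Notch4 for signalling between endothelial cells. Lunatic and manic fringe (Lfng, Mfng) add sugars to the receptors and so alter which ligands they respond to.

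On the high fat diet, the target gene Hey1 rose about 3.05-fold and the ligand Jag1 about 1.58-fold in mean level. These 2 of the 10 genes were called higher and 0 were called lower by edgeR's quasi-likelihood test (adjusted p of 0.01 or less together with a log2 fold change beyond 0.5 in either direction). Of all 17913 genes tested, 13.2% were called higher and 4.99% lower by the same rule. At an unadjusted p under 0.05, 6 of the 10 were higher and 1, Notch2, was lower. DESeq2 called 4 higher and limma-voom 1, and both called 0 lower. The shares of all genes at that unadjusted p, with DESeq2 and with limma-voom are not given here, so these counts have no background beside them. The median log2 fold change was 0.36 over the 10 genes and -0.03 over all genes tested, and 9 of the 10 log2 fold changes were above 0. Scaled by library totals alone, these medians were 0.66 and 0.26, and edgeR called 6 of the 10 higher and 0 lower (0 also at an unadjusted p under 0.05), against 21.4% and 1.26% of all genes.

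Libraries held 14468418 to 22112552 counts on genes, and 3 counts equalled 0.16 counts per 1000000 in a library of median total. Levels are given as CPM, counts per 1000000 of the TMM-scaled library total. TMM factors, which rescale the totals, ran from 0.994 to 1.34 on the high fat diet, where replicate 9 was highest, and from 0.679 to 1.01 on the control diet, where replicate 10 was lowest. Replicates 1 to 6 of each diet had Xist counts above 1000 and replicates 7 to 12 had them below 1000. Results are therefore also given within these sets of 6 libraries per diet, which are not conditions. The sets match in size the study's 6 mice per diet and sex, but whether they are the sexes was not tested. The main fit holds diet as its only term, with no term for sex or set. The 8 hepatocyte markers summed to 37800 to 135000 CPM, and 6 of them were called lower on the high fat diet and 0 higher. Of the other 9 marker lists, which are given below beside the results, only that of resident macrophages held a gene called lower. Because whole liver was sequenced, a change in the number of cells of a type and a change in RNA per cell cannot be told apart. P-values measure the spread between libraries, each taken as 1 mouse.

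**Figure D1:**
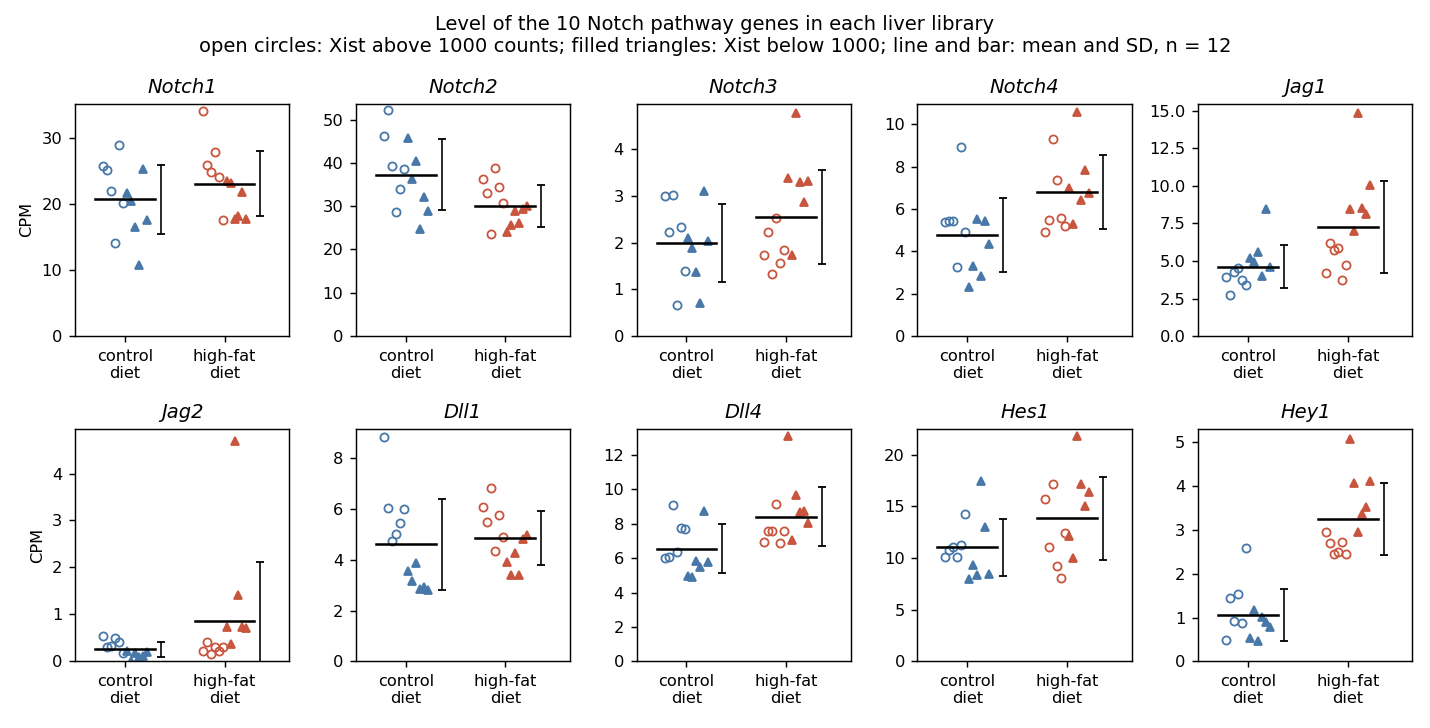
Level of each of the 10 genes in every library, in CPM relative to the TMM-scaled library total on the vertical axis, by diet, with the mean and SD of the 12 libraries of each diet. Hey1 shows the clearest separation of the 10, with 9 of 12 high fat diet libraries above the highest control. No share of all genes is given for this separation. Jag2 on the high fat diet is spread by replicate 9 at 4.69 CPM.

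Promoter sequence is shown for Jag1 and Jag2, the ligands whose levels are followed most closely below, and for Lfng, a fringe gene that rose and that held 2 matches. The motif searched was the RBPJ core TGGGAA or its complement TTCCCA, on both strands, in the 250 bases before each RefSeq start on GRCm38.p6. Matches are in capitals. All 3 are written 5′ to 3′ on the strand of the gene.
Jag1, chr2:137116521-137116770, minus strand: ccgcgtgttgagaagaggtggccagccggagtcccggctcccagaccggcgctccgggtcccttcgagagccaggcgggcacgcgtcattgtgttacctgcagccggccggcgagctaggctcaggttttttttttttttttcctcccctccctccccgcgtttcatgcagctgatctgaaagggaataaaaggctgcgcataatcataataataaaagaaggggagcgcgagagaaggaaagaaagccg
Jag2, chr12:112929496-112929745, minus strand: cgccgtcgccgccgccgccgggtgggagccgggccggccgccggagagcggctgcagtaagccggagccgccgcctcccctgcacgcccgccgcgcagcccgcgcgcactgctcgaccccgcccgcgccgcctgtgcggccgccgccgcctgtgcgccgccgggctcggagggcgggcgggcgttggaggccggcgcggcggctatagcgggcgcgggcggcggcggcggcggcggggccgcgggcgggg
Lfng, chr5:140607091-140607340, plus strand: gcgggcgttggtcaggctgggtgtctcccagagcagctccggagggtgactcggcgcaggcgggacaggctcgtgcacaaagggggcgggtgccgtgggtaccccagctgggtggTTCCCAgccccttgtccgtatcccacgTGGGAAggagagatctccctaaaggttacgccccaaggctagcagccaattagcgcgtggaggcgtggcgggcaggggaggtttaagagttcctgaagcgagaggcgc
By the GENCODE M21 annotation, part of the Jag1 and of the Lfng window and the whole Jag2 window lie within the annotated gene. Entries were found for 8 of the 10 genes, all except Hes1 and Hey1, and these 9 entries held 0 matches. Of all 32851 entries, 21.6% held at least 1 match and 2.77% held 2 or more. Of the 60 entries of the pathway list described below, 20.0% held at least 1 match and 3 held 2 or more. Besides that of Lfng, these were an entry of Rbpj, which was not called, and that of Hes5, which was not tested. The 2 matches of Lfng are a description of the sequence, and the lack of these 6 letters in a window says nothing about binding of the factor.

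Of the 4 receptors edgeR called 0, with 1 higher and 1 lower at an unadjusted p under 0.05, while DESeq2 called Notch4 higher and limma-voom called 0. Their relative amounts nevertheless shifted. Notch1 (chr2:26457903-26516663, minus strand, GRCm38) ran from 10.8 to 28.9 CPM with a median of 21.1 on the control diet and from 17.6 to 34.0 with a median of 23.4 on the high fat diet. The groups overlapped over most of their range, and the log2 fold change was 0.15 ± 0.13 (SE, edgeR adjusted p = 0.388). Notch2 (chr3:98013527-98150361, plus strand), the receptor required for bile duct formation, ran from 24.6 to 52.3 CPM with a median of 37.5 on the control diet and from 23.7 to 38.7 with a median of 29.7 on the high fat diet. Only 1 high fat diet library lay above the control median, and 5 control libraries lay above every high fat diet library. The log2 fold change of Notch2 was -0.31 ± 0.11 (SE, edgeR adjusted p = 0.0263), short of both thresholds, and -0.04 when scaled by library totals.

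Notch3 (chr17:32120820-32166852, minus strand), known from vascular smooth muscle and pericytes, had 0.656 to 3.12 CPM with a median of 2.07 on the control diet and 1.33 to 4.78 with a median of 2.38 on the high fat diet. The groups overlapped widely, with 4 high fat diet libraries above the highest control, and the log2 fold change was 0.35 ± 0.24 (SE, edgeR adjusted p = 0.253). The 5 smooth muscle markers (1 called higher, 0 lower) summed to 1.91 to 7.07 CPM on the control diet and 3.24 to 6.47 on the high fat diet. Notch4 (chr17:34564268-34588503, plus strand), a receptor of endothelial cells, had 2.33 to 8.92 CPM with a median of 5.17 on the control diet and 4.91 to 10.6 with a median of 6.60 on the high fat diet. All but 1 of the high fat diet libraries lay above the control median, yet only 2 exceeded the highest control, replicate 5. The log2 fold change of Notch4 was 0.51 ± 0.18 (SE, edgeR adjusted p = 0.0222); DESeq2 gave an adjusted p of 0.00964.

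Per kilobase of exon, Notch2 was the most abundant receptor on both diets, and its share of the 4 receptors fell. Shares do not depend on scaling between libraries. Notch2 made up 60.4% ± 5.92 of the summed counts per kilobase on the control diet (SD, n = 12) and 50.0% ± 4.72 (SD, n = 12) on the high fat diet (two-sided permutation test with 100000 resamples, p = 0.00032, adjusted p = 0.00288 over 9 receptor and ligand shares). The share of Notch4 rose from 10.3% ± 2.89 to 15.3% ± 4.01 (the same permutation test, p = 0.00132, adjusted p = 0.00594). The shares of a library add up to the whole, so a fall of Notch2 raises the others, and these results are not independent. Notch1 made up 25.2% ± 3.14 and 29.0% ± 4.47 and Notch3 4.17% ± 1.44 and 5.74% ± 2.34, which did not pass (permutation test, adjusted p = 0.0769 and 0.111). Within the libraries with Xist above 1000 counts, neither the Notch2 nor the Notch4 difference passed, at -7.60 and 2.50 percentage points (permutation test, adjusted p = 0.143 and 0.464). Within those with Xist below 1000 counts both passed, at -13.2 and 7.54 percentage points (permutation test, adjusted p = 0.013 and 0.00974). The 8 continuous endothelial markers, 4 of which were called higher and 0 lower, summed to 73.6 to 145 CPM on the control diet and 143 to 202 on the high fat diet. The 8 sinusoidal endothelial markers, with 1 higher and 0 lower, summed to 201 to 461 and 214 to 467 CPM. Their part in the shift between receptors was not tested.

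**Figure D2:**
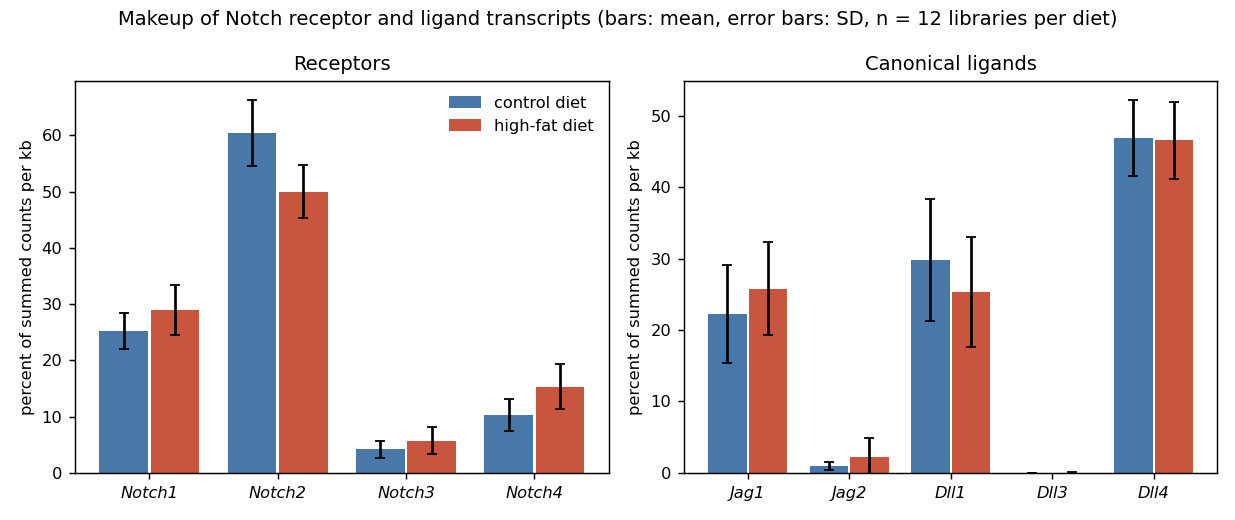
Share of each receptor among the 4 receptors and of each ligand among the 5 canonical ligands, in percent of summed counts per kilobase on the vertical axis, with bars for the mean and error bars for the SD of 12 libraries per diet. Notch2 falls from 60.4% to 50.0% and Notch4 rises from 10.3% to 15.3%, and the SD bars of each ligand share overlap between diets.

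Among the ligands, Jag1 (chr2:137081456-137116644, minus strand) was the only one that edgeR called, while DESeq2 also called Jag2 and limma-voom called neither. This ligand of the Jagged family is made by cholangiocytes, portal mesenchymal cells and endothelium, among others. Jag1 had 2.72 to 8.44 CPM with a median of 4.41 on the control diet and 3.74 to 14.9 with a median of 6.58 on the high fat diet. Of the high fat diet libraries, 10 lay above the control median and 4 above the highest control, replicate 11. The log2 fold change was 0.66 ± 0.20 (SE, edgeR adjusted p = 0.00935), close to the threshold of 0.01. The call was lost when any of 18 of the 24 libraries was left out. Without high fat diet replicate 9, the highest library, the log2 fold change was 0.52 (adjusted p = 0.0235, edgeR).

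Jag2 (chr12:112907819-112929776, minus strand), the other Jagged ligand, was the least abundant of the 10 genes. Its counts ran from 0 to 11 per library on the control diet and from 3 to 111 on the high fat diet, which is 0 to 0.541 CPM with a median of 0.207 and 0.160 to 4.69 CPM with a median of 0.397. One library stood apart: high fat diet replicate 9 held 111 counts, and the next highest, replicate 10, had 1.42 CPM. The log2 fold change was 1.71 ± 0.52 (SE, edgeR adjusted p = 0.0115), just short of the threshold, and without replicate 9 it was 0.97 (adjusted p = 0.0602, edgeR). The call was made by DESeq2 (1.77, adjusted p = 0.00312) and by edgeR with library totals (2.10, adjusted p = 0.00379), but not by limma-voom (1.26, adjusted p = 0.0497).

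High fat diet replicate 9 also had the highest sum of the 8 cholangiocyte markers. That sum was 253 CPM in replicate 9 and 22.4 to 77.9 in the other high fat diet libraries, against 17.3 to 34.7 on the control diet, and 6 of these markers were called higher and 0 lower. The same library held the highest sum of the 6 T cell markers, 21.8 CPM, against at most 10.3 on the control diet, and 1 of these markers was called higher and 0 lower. The part of these cells in the levels of Jag1 and Jag2 was not tested.

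Neither Delta-like ligand among the 10 genes was called by edgeR. Dll1 (chr17:15367354-15376872, minus strand) had 2.83 to 8.85 CPM with a median of 4.31 on the control diet and 3.39 to 6.82 with a median of 4.87 on the high fat diet, and its log2 fold change was 0.06 ± 0.17 (SE, edgeR adjusted p = 0.801). Within the control diet, Dll1 was at 4.76 to 8.85 CPM in replicates 1 to 6 and 2.83 to 3.86 in replicates 7 to 12. The share of all genes that separate so between the library sets is not given here. Dll4 (chr2:119325784-119335962, plus strand), an endothelial ligand, had 4.89 to 9.09 CPM with a median of 6.02 on the control diet and 6.86 to 13.1 with a median of 7.82 on the high fat diet. Every high fat diet library exceeded the control median of Dll4 and 3 exceeded the highest control, with a log2 fold change of 0.36 ± 0.12 (SE, edgeR adjusted p = 0.0187). Scaled by library totals, Dll4 was at 0.65 and was called (adjusted p = 0.000997, edgeR). Dll3, also a canonical ligand, reached at most 2 counts in a library and was not tested. Dll4 made up 46.9% ± 5.34 of the ligand counts per kilobase on the control diet and 46.6% ± 5.40 on the high fat diet. The 5 ligand shares did not pass (adjusted p of 0.111 to 0.999, the same permutation test).

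The target gene Hey1 (chr3:8663359-8667256, minus strand), a repressor of the Hey family with known roles in vessels, separated the diets best among the 10 genes. Control libraries had 0.461 to 2.58 CPM with a median of 0.910, and high fat diet libraries had 2.45 to 5.07 with a median of 2.96. Every high fat diet library lay above 11 of the 12 control libraries. The exception was control replicate 6, at 2.58 CPM. How many of all genes separate this far is not given here. Mean levels were 3.24 ± 0.82 CPM and 1.06 ± 0.588 (SD, n = 12 each), and the log2 fold change was 1.60 ± 0.23 (SE, edgeR adjusted p = 9.01e-06). It stayed between 1.52 and 1.81 when single libraries were left out, and the call was kept each time.

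Hes1 (chr16:30064384-30067796, plus strand), a repressor that is also induced by other signals, had 7.95 to 17.4 CPM with a median of 10.5 on the control diet and 8.09 to 21.8 with a median of 13.7 on the high fat diet. The groups overlapped, and the log2 fold change of 0.33 ± 0.15 did not pass (SE, edgeR adjusted p = 0.079). With library totals it was 0.65 and was called (adjusted p = 0.00273, edgeR). Per kilobase, Hes1 was the most abundant of the 10 genes on both diets, at 5.41 ± 1.35 CPM per kilobase on the control diet and 6.79 ± 1.98 on the high fat diet (SD, n = 12). Notch2 followed at 3.45 and 2.79 CPM per kilobase, and Jag2 came last at 0.0367 and 0.123. In this order the SD ranges of most neighbours overlapped. On the control diet the exceptions were Notch2 above Dll4 and Notch3 above Jag2, and on the high fat diet Hes1 above Notch2 and Notch4 above Notch3. Compared within each library, Hes1 also exceeded Notch2 in 11 of 12 control libraries. On the high fat diet, Notch2 exceeded Dll4, Dll4 exceeded Notch1, and Notch3 exceeded Jag2, each in 11 of 12 libraries. The remaining neighbours kept their order in 5 to 10 of 12 libraries. Hey1 stood below Notch4 on the control diet, at 0.325 against 0.591 CPM per kilobase, and above it on the high fat diet, at 0.992 against 0.846.

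The wider pathway was read from a list of 59 genes that holds the 10, of which 56 were tested. Of these, 13 were called higher and 3 lower, and 36 of the 56 log2 fold changes were above 0. Scaled by library totals, 19 were called higher and 0 lower, and 14 of the 56 changed sign, leaving 6 below 0 against 20. The median log2 fold change was 0.15 (0.41 with library totals). Without the 10 genes, 11 of 46 tested were called higher and 3 lower, against the 13.2% and 4.99% of all genes.

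Receptor glycosylation genes gave 2 higher of 5. Lfng rose from 5.04 ± 1.74 to 8.32 ± 1.71 CPM (SD, n = 12 each; log2 fold change 0.72, adjusted p = 0.000773, edgeR) and Mfng from 1.85 ± 0.551 to 3.06 ± 0.923 (0.72, adjusted p = 0.00333, edgeR). Rfng, Pofut1 and Poglut1, which also modify the receptor, had log2 fold changes of 0.01 to 0.10. Of the 4 ubiquitin ligases that act on ligand endocytosis, Neurl1a (log2 fold change 1.66, adjusted p = 0.00271, edgeR) and Neurl1b (1.16, adjusted p = 0.000419) rose. Neurl1a had only 0 to 17 counts in the control libraries. High fat diet replicate 9 held 160 counts of it, at 6.76 CPM against 2.21 in the next highest library. Without replicate 9, the log2 fold change of Neurl1a was 1.13 and was still called (adjusted p = 0.00773, edgeR). Mib1, the main ligase for Notch ligands, had a log2 fold change of -0.44 that passed on its adjusted p of 0.000567 (edgeR) but not on its size (-0.17 with library totals, adjusted p = 0.16), and Mib2 one of 0.19. Of the 10 genes of receptor cleavage, among them Adam10 and Ncstn, edgeR, DESeq2 and limma-voom each called 0 (edgeR had 2 higher and 1 lower at an unadjusted p under 0.05). Their log2 fold changes ran from -0.40 for Aph1b to 0.30 for Adam17.

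In the nucleus, Rbpj itself had 18.6 ± 2.51 CPM on the control diet and 18.1 ± 1.18 on the high fat diet (log2 fold change -0.04, adjusted p = 0.659, edgeR; 0.24 with library totals). The coactivator Maml2 rose (0.70, adjusted p = 0.00801), a call lost when any of 12 of the 24 libraries was left out, and the acetyltransferase Kat2b fell (-0.52, adjusted p = 2.92e-05), as did the histone demethylase Kdm5a (-0.54, adjusted p = 0.000122). Every high fat diet library lay below the control median of Kat2b and of Kdm5a. Of the 9 inhibitors and turnover genes, 4 rose and 1 fell. Numbl, an adaptor that antagonises Notch, ran from 0.713 to 2.31 CPM on the control diet and from 2.51 to 8.41 on the high fat diet, with no overlap, which 1.48% of all genes showed in this direction and 0.402% in the other (log2 fold change 1.29, adjusted p = 6.75e-05, edgeR). Dtx3 (1.35), Dtx4 (0.74) and Nrarp (0.90), an inhibitor that Notch itself induces, also rose, and the ubiquitin ligase Itch fell (-0.52, adjusted p = 0.00106, edgeR). Scaled by library totals, the log2 fold changes of Kat2b, Kdm5a and Itch were -0.25, -0.26 and -0.26 and none was called.

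Of the other target genes, Heyl, a Hey family repressor, rose from 2.37 ± 0.938 to 5.50 ± 2.35 CPM (SD, n = 12 each; log2 fold change 1.22, adjusted p = 0.000216, edgeR). Spp1, which encodes osteopontin and is also made by cholangiocytes and macrophages, rose from 43.5 ± 27.9 to 268 ± 216 CPM (log2 fold change 2.62, adjusted p = 3.27e-05, edgeR). All 7 markers of monocyte-derived macrophages were called higher, and their sum was 20.3 to 67.4 CPM on the control diet and 123 to 299 on the high fat diet. Sox9 (0.55, adjusted p = 0.142, and 0.29 without high fat diet replicate 9), Ccnd1 (0.16) and Hey2 (0.37) were not called. Hes5 reached at most 1 count and was not tested. High fat diet replicate 9 was the highest library for Mfng, Neurl1a, Neurl1b, Maml2, Numbl, Dtx3, Dtx4, Heyl and Spp1. Without high fat diet replicates 9 and 10, the libraries with the highest TMM factors, 9 of the list were called higher, 0 lower, and Jag1, Mfng, Neurl1a, Maml2, Kat2b, Kdm5a and Itch were no longer called.

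**Figure D3:**
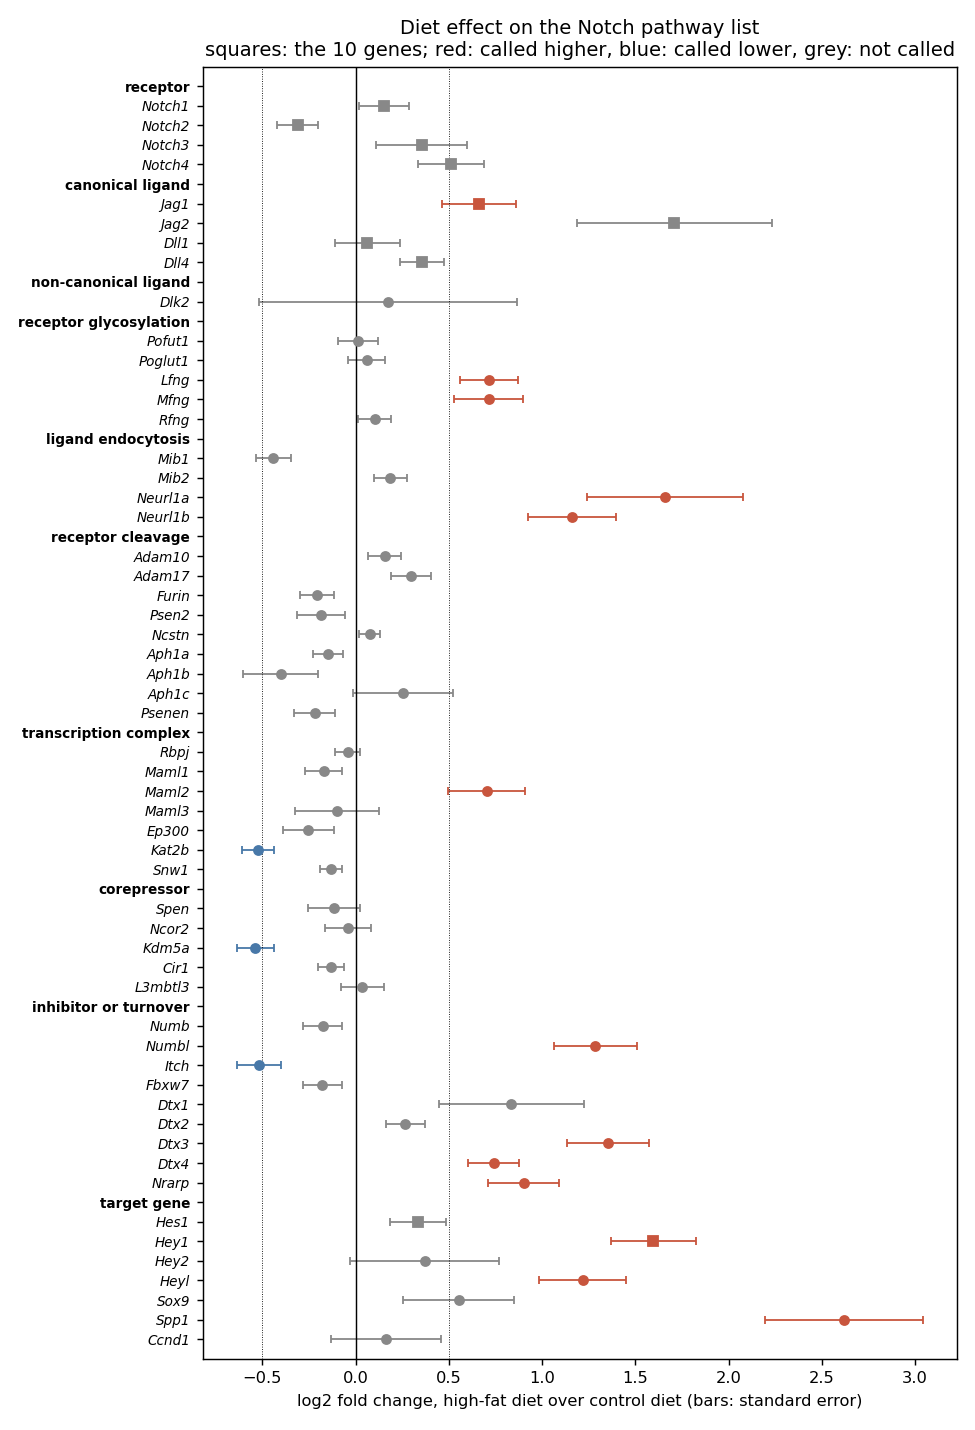
Log2 fold change, high fat diet over control diet, of 55 of the 56 tested genes of the pathway list grouped by role, with bars of 1 standard error. The 13 genes called higher and 3 called lower are marked, and the receptor cleavage genes plotted lie between -0.40 and 0.30.

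For 8 of the 10 genes, the log2 fold change between the diets was higher among replicates 7 to 12 than among replicates 1 to 6. The share of all genes with a difference in this direction is not given here, so the 8 are not shown to be unusual. Within replicates 1 to 6, where Xist was above 1000 counts, edgeR called 0 of the 10 genes and 0 of the 56 of the list. By the same rule, 2.90% of all genes were called higher and 0.882% lower. At an unadjusted p under 0.05, 2 of the 10 passed, and of the list 10 were higher and 6 lower. No share of all genes at that unadjusted p is given here, so these 3 counts have no background beside them. Within replicates 7 to 12, 4 of the 10 were called higher (Notch4, Jag1, Jag2 and Hey1) and 16 of the list higher and 4 lower, against 14.4% and 7.99% of all genes. Fewer genes passed in the first set over the whole table, so these counts alone do not show a difference for the 10.

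The difference between the sets was itself tested, as the interaction of diet and set. Jag2 had an adjusted interaction p of 0.0033 (edgeR), and 1 of the 10 genes therefore passed 0.01, against 4.06% of all genes. The log2 fold change of Jag2 was -0.46 ± 0.38 (SE) in replicates 1 to 6 and 3.38 ± 0.71 (SE) in replicates 7 to 12. In counts, Jag2 had 3 to 8 on the high fat diet and 4 to 11 on the control diet in the first set. In the second set it had 7 to 111 and 0 to 4. Without high fat diet replicate 9, the value for replicates 7 to 12 was 2.52 ± 0.51 (SE, edgeR adjusted p = 0.00193).

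For Hey1, the log2 fold change was 1.01 in replicates 1 to 6 (adjusted p = 0.0334, not called) and 2.26 in replicates 7 to 12 (adjusted p = 1.03e-05, edgeR), with an adjusted interaction p of 0.0414. Lfng behaved alike, at 0.30 and 1.25 (adjusted interaction p = 0.0117, edgeR). In all, 8 of the 56 list genes had an adjusted interaction p of at most 0.05, against 10.2% of all genes. For Jag1 (0.44 and 0.81), Notch4 (0.19 and 0.90) and Dll4 (0.10 and 0.65), the adjusted interaction p was 0.119 to 0.439 (edgeR), so a difference between the sets was not shown. Notch2 had -0.27 and -0.33.

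The marker sums of other cells moved with the sets as well. On the high fat diet, the median sum of the 8 activated stellate cell or myofibroblast markers (6 higher, 0 lower) was 240 CPM in replicates 1 to 6 and 633 in replicates 7 to 12, against 63.2 and 59.7 on the control diet. Over all libraries that sum was 186 to 697 CPM on the high fat diet and 46.6 to 239 on the control diet. For the cholangiocyte markers it was 36.8 and 69.0, against 26.3 and 28.1. The 7 quiescent stellate cell markers (3 higher, 0 lower) summed to 212 to 365 CPM on the high fat diet and 176 to 426 on the control diet, and the 6 resident macrophage markers (1 higher, 1 lower) to 171 to 781 and 113 to 483. On the control diet, the median sum in replicates 1 to 6 and in replicates 7 to 12 was 341 and 223 CPM for quiescent stellate cells. It was 391 and 160 for resident macrophages, 386 and 282 for sinusoidal endothelial cells, and 115000 and 90000 for hepatocytes. On the high fat diet these medians were, in the same order, 323 and 256, 499 and 403, 354 and 323, and 80200 and 47100. The part of these cells in the differences between the sets was not tested.

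**Figure D4:**
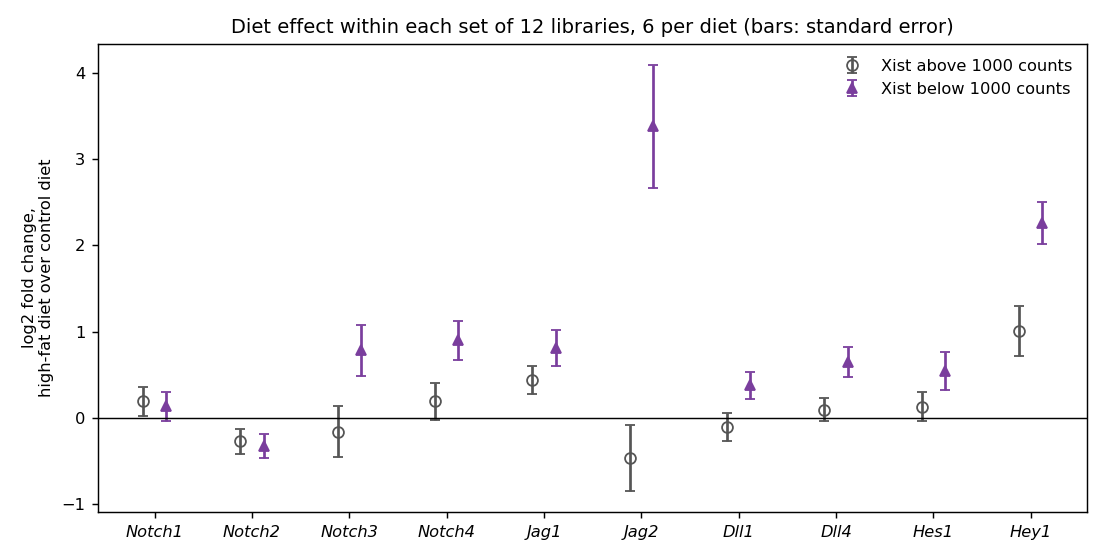
Log2 fold change of the 10 genes, high fat diet over control diet, within replicates 1 to 6 (Xist above 1000 counts) and within replicates 7 to 12 (Xist below 1000 counts), with bars of 1 standard error and 6 libraries per diet in each set. Jag2 lies at -0.46 and 3.38 and Hey1 at 1.01 and 2.26, whereas the values of Notch1 and Notch2 lie close together.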

How the data were processed

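Whole-liver, poly(A)-selected RNA-seq of 12 high fat diet and 12 control diet libraries was used, and groups came from the labels. The deposited table holds raw counts for each Ensembl gene ID, which the authors had not normalized. The submitters' processing notes name bcl2fastq, STAR 2.7.3a and mm10. The study's methods describe a stranded kit, and counting with the exon quantification pipeline and PISCES, only beside a human reference. What was used for the mouse counts, their annotation and strand setting is not given in the sources used here. Exons of Notch1, Notch3 and Dll4 overlap opposite-strand transcripts of low counts, Notch2 one on its own strand, and Dll1 a further opposite-strand transcript. Symbols, positions and exon lengths came from GENCODE M21 (GRCm38), which held 51745 of the 56205 gene IDs (the rest had 0.0723% of counts). Promoter sequences are from RefSeq (GRCm38.p6).

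Diet effects were fitted in R 4.3.3 by edgeR 4.0.16 (TMM-scaled totals, a filter of 1 or more counts in 12 or more libraries, diet as the only term, quasi-likelihood test, Benjamini-Hochberg adjustment over 17913 genes). A call needed an adjusted p of 0.01 or less and a log2 fold change beyond 0.5 in either direction. Standard errors (SE) were derived from the fold change and its F statistic. Fits were tested on simulated data. Shares were compared with permutation tests (SciPy 1.17.1). No 2 libraries of a diet were alike within sampling noise (lowest chi-square per degree of freedom 9.48).

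Members, gene and marker lists, and the split by Xist were chosen with earlier results of these data known. The genes named are the 10, the pathway list, the marker lists, and for each of the 10 the 3 genes most like it. Alternatives were DESeq2 1.42.0, limma-voom (limma 3.58.1), other scalings, filters and thresholds, surrogate variables (sva 3.50.0, 1 or 2 of them), a block for the replicate number, library sets, and libraries left out. Leaving out high fat diet replicates 9 and 10 together was chosen after seeing the data. Libraries of other models in the study were not analysed here. The result of 1 gene of the pathway list is not reported here by name.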

Additional observations from a re-analysis of the deposited data

Results flagged for a closer look

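Jag2 is listed here because its diet effect differed between the sets of libraries by a test of the difference itself. The log2 fold change in replicates 7 to 12 exceeded that in replicates 1 to 6 by 3.83 (standard error 0.81, adjusted interaction p = 0.0033, edgeR). The difference was 2.95 (adjusted p = 0.00314) without high fat diet replicate 9, 3.79 (adjusted p = 0.00459) without control replicate 10, and 4.23 (adjusted p = 0.00127) with library totals in place of TMM. In replicates 7 to 12 Jag2 was higher in 6 of 6 high fat diet libraries than in any control library of that set. The share of all genes that separate so within the set is not given here. The control libraries of the set held 0 to 4 counts, so the size of the fitted fold change depends on few counts. The sets are not conditions, and the cause was not tested.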

How the results depend on the processing

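Of the 10 genes, 2 were called higher. This count was 4 with DESeq2, 1 with limma-voom, 6 with library totals, 1 with no filter, 1 with at least 10 counts in every library (a filter that removes Hey1), 5 with the threshold relaxed to an adjusted p of 0.05 and no fold limit, 1 at an absolute log2 fold change over 1, 0 where Xist was above 1000 counts, 4 where it was below, 1 without high fat diet replicates 9 and 10, and 1 to 3 when single libraries were left out. The count of 0 lower became 1 with that relaxed threshold (Notch2) and stayed 0 when single libraries were left out. The 13 higher of the pathway list became 19 with library totals, 15 with DESeq2, 8 with at least 10 counts in every library, 7 at a log2 fold change over 1, 0 where Xist was above 1000 counts, and 11 to 14 when single libraries were left out. The 3 lower became 0 with library totals, with at least 10 counts in every library, where Xist was above 1000, at a log2 fold change over 1 and without high fat diet replicates 9 and 10, 5 with the relaxed threshold, and 1 to 3 when single libraries were left out (1 without high fat diet replicate 9, high fat diet replicate 10 or control replicate 2). The 1 gene with an interaction became 2 with library totals and 2 with an adjusted p up to 0.05. Jag1 lost its call with limma-voom (adjusted p = 0.0136) and with no filter (0.0108). Of all genes, the main fit called 13.2% higher and 4.99% lower, and the fit with library totals 21.4% and 1.26%. Where Xist was above 1000 counts the shares were 2.90% and 0.882%, and where it was below 14.4% and 7.99%. An interaction passed 0.01 in 4.06% of all genes and 0.05 in 10.2%. For the other settings of this section no share of all genes is given here, so those counts have no background beside them.

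Differences in share, in percentage points, were as follows. Notch1 passed 0.05 with counts not divided by length (4.89, adjusted p = 0.0427) and without control replicate 11 (4.31, adjusted p = 0.0383, permutation tests). Where Xist was above 1000, Notch2 was at -7.60 and Notch4 at 2.50, and Notch3 (-0.0756), Jag2 (-0.441) and Dll4 (0.383) reversed. Where it was below, Notch2 (-13.2), Notch4 (7.54), Notch3 (3.20) and Jag2 (3.0) passed. Dll4 was at 0.0488 without control replicate 11. Where Xist was above 1000, log2 fold changes of 10 of the 56 list genes had the opposite sign, 0 of them called genes, among them Notch3 (-0.16), Jag2 (-0.46), Dll1 (-0.11) and Dtx1 (-0.39). Rbpj was at 0.24 with library totals, 0.0128 with at least 10 counts in every library and 0.0152 where Xist was below 1000. The cause was not tested.

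Deviations of libraries with the same replicate number correlated at -0.096 for number 9 and from 0.162 to 0.571 for the others, and same-numbered libraries also share the Xist set. No label says what a number marks, so libraries were left unpaired. With the replicate number as a block, 2 of the 10 were called higher and 0 lower, and 10 of the list higher and 3 lower. The blocked fit did not call Mfng, Neurl1a and Maml2 (adjusted p = 0.0186, 0.037 and 0.0257, edgeR) and changed no other call of the list. Depth limits Jag2, with 0 to 11 counts in the control libraries.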

Other observations

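As a description, each gene was set against 13928 others by Pearson's r of log2(CPM + 1) over the 24 libraries, after the mean of each diet within each library set was subtracted. The points share library depth and the makeup of each liver. Most like Hey1 was Prnp (r = 0.79), most like Hes1 was Ramp2 (0.87), and most like Jag1 was Phtf1 (0.82). Jag2 was most like Aldh1a2 (0.93), Fbn2 (0.89) and Ly6c1 (0.89). For Dll4 it was Arhgap11a (0.77) and for Dll1 Tbc1d14 (0.70). Among the receptors, the closest were Zbtb7a for Notch1 (0.84), Ptprf for Notch2 (0.90), Gon4l for Notch3 (0.86) and Tacc2 for Notch4 (0.78).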
